A study of Mus musculus with 111 samples.

Results

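The 48 embryos of experiment 3 made up 1 of 3 rounds of an Nr5a2 knockdown in mouse 2-cell embryos: 23 knockdown and 25 control embryos, of 55 knockdown and 56 control embryos in all. They were taken by the experiment and arm in the title of each library, and estimated counts per transcript were summed to 35973 gene symbols. Every embryo was of strain B6129F1 and was sequenced alone at the 2-cell stage by SmartSeq2 from oligo dT primers, so the libraries hold polyadenylated RNA and no molecular identifiers. Knockdown embryos grew from oocytes at the germinal vesicle stage that had received a set of 2 siRNAs against Nr5a2, at 20 µM each, with H2B-rsEGFP at 150 ng/µl, a fluorescent histone fusion that marks injected cells. Control embryos grew from oocytes that had received the control with H2B-EGFP at the same concentration. Both arms were held in dbcAMP medium for 5 hours after injection, matured for 12 hours without it, fertilized in vitro and cultured in KSOM. The siRNA and the marker differed between the arms together, so their effects cannot be told apart, and neither can those of the 2 siRNAs of the set. Each library is a whole embryo, so a change in both of its cells cannot be told from a larger change in 1 of them. Which embryos had the same mother is not stated, so p-values rest on the spread from embryo to embryo.

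Nr5a2, also called LRH-1, belongs to the nuclear receptors and binds DNA as a single molecule, at a half-site of the nuclear receptor type with extra bases on its 5′ side. It is known from liver, gut and gonads, where it controls bile acid and steroid genes, and from early embryos and pluripotent cells. At the 2-cell stage the mouse embryo carries out the main wave of its genome activation, while RNA that the oocyte stored is being removed.

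Libraries held 4.04 to 10.7 M estimated counts (median 5.28 M). They averaged 5.55 ± 1.49 M in knockdown and 5.43 ± 0.773 M in control embryos (SD, n = 23 and 25; permutation test, two-sided, p = 0.739). Genes with at least 5 counts numbered 14629 ± 506 in knockdown and 14775 ± 676 in control embryos (permutation test, two-sided, p = 0.402). Knockdown embryos 5, 8 and 15 stood apart. Their mean Pearson's r with the other embryos, over log2 CPM (counts per M counts of the library), was 0.656, 0.650 and 0.706, against 0.770 to 0.860 in the other 45 embryos. Reporter rows matched the arm in most embryos. The first of 2 reporter rows lay between 0 and 10.9 CPM in knockdown embryos and between 2.93 and 519 CPM in control embryos. The second lay between 0.496 and 90.2 CPM in knockdown embryos, with a median of 25.7 CPM, and did not pass 0.488 CPM in control embryos. The lowest knockdown value, 2 counts, was that of the library labelled knockdown 15, in which the first reporter row was at 0 as well. The lowest control value of the first row, 2.93 CPM, was that of the library labelled control 3, which lay inside the knockdown range and had the second row at 0. Without control 3, 5 lower and 8 higher genes were called, against 7 and 11 with it. Results are therefore also given without embryos 5, 8 and 15, a choice made after the data were seen.

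The targeted gene came first as a check of the labels. Nr5a2 (ENSMUSG00000026398; chromosome 1, 136842571 to 136960448, minus strand, GRCm38) ran from 12.9 CPM through a median of 43.1 to 78.7 CPM in knockdown embryos, against 42.6, 75.5 and 223 CPM in control embryos. In words, 21 of the 23 knockdown embryos lay below the control median and 11 below every control embryo, but the arms overlapped, and the gene was detected in all embryos. Embryos 8 and 5 were among the lowest knockdown embryos, with 12.9 and 21.7 CPM, and embryo 15 was at 53.8 CPM. The mean was 44.3 ± 18.8 CPM in knockdown and 93.2 ± 47.4 CPM in control embryos (SD, n = 23 and 25). By edgeR's quasi-likelihood test this is a log2 fold change of -1.07 (SE 0.20, Benjamini-Hochberg adjusted p = 0.00347), and it was -1.01 without embryos 5, 8 and 15 (adjusted p = 0.00949). Transcript ENSMUST00000192929.5 took 32.9% of the Nr5a2 counts in knockdown and 46.0% in control embryos, and ENSMUST00000027649.13 took 39.3% in knockdown and 22.5% in control embryos. The table also holds a separate row under the Nr5a2 gene identifier. The sources used here do not say what it holds, and it is not part of the sum above. That row was at 49.8 ± 17.6 CPM in knockdown and 44.1 ± 13.4 CPM in control embryos (SD, n = 23 and 25; permutation test, two-sided, p = 0.207).

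Few other genes passed the test. Among 13354 tested genes, knockdown embryos had 7 lower and 11 higher ones with an adjusted p below 0.05, or 0.135% (0.0524% lower and 0.0824% higher). At an unadjusted p under 0.05 there were 333 lower and 537 higher genes, or 6.51%. Over all genes the median log2 fold change was 0.04, and 8 of the 18 called genes changed by at least 2-fold. With library totals alone as the scaling, 12 were lower and 8 higher, so higher genes made up 40.0% of the calls instead of 61.1%. Counts simulated at this design, over 13054 genes, gave back 52% of genes with a 2-fold change and 15% of those with a 1.5-fold change, so smaller changes were mostly out of reach. When each of the 48 embryos was left out in turn, 10 of the 18 genes were called every time: Nr5a2, B020017C02Rik, Lrtm1, Pam, Cdh6, mt-Atp8, mt-Nd1, mt-Nd2, mt-Co2 and Gm10925. Without embryos 5, 8 and 15, 18 lower and 16 higher genes were called of 13644 tested (0.249%; 0.132% lower and 0.117% higher), and they held 13 of the 18.

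Among nuclear genes, Lrtm1, Pam and Cdh6 rose most. Lrtm1 codes for a leucine-rich repeat protein of the membrane, Pam for the enzyme that amidates the ends of secreted peptides, and Cdh6 for a cadherin. Lrtm1 ran from 53.0 CPM through a median of 142 to 352 CPM in knockdown embryos, against 20.0, 53.2 and 136 CPM in control embryos. All but 1 of the 23 knockdown embryos lay above the control median and 12 lay above every control embryo. Its log2 fold change of 1.38 (SE 0.20; edgeR quasi-likelihood test, adjusted p = 0.000151) was 1.28 without embryos 5, 8 and 15 (adjusted p = 0.000797).

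Pam lay between 62.0 and 388 CPM in knockdown embryos, with a median of 156 CPM, against 22.7 to 168 CPM and a median of 61.8 CPM in control embryos. Every knockdown embryo was above the control median, and 10 were above all controls. Pam rose by 1.29 on the log2 scale (SE 0.21; edgeR adjusted p = 0.000667), and by 1.20 without embryos 5, 8 and 15 (adjusted p = 0.00317). Cdh6 had 5.56, 14.8 and 25.9 CPM as its lowest, median and highest value in knockdown embryos, against 2.91, 6.79 and 13.2 CPM in control embryos. Here 14 knockdown embryos were above all controls. It rose by 1.1 (SE 0.19; edgeR adjusted p = 0.00222), and by 1.03 without the 3 embryos (adjusted p = 0.00949). Tmem170b, a low gene at 3.87 ± 1.71 CPM in knockdown and 1.93 ± 0.891 CPM in control embryos (SD, n = 23 and 25), was called too (log2 fold change 1.00, SE 0.23; edgeR adjusted p = 0.0455), but not without embryos 5, 8 and 15 (0.90, adjusted p = 0.0965). Leaving out any of 31 single embryos ended that call. Cdh6 and Tmem170b fall outside the rule for named genes and were picked after their values were seen.

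**Figure D1:**
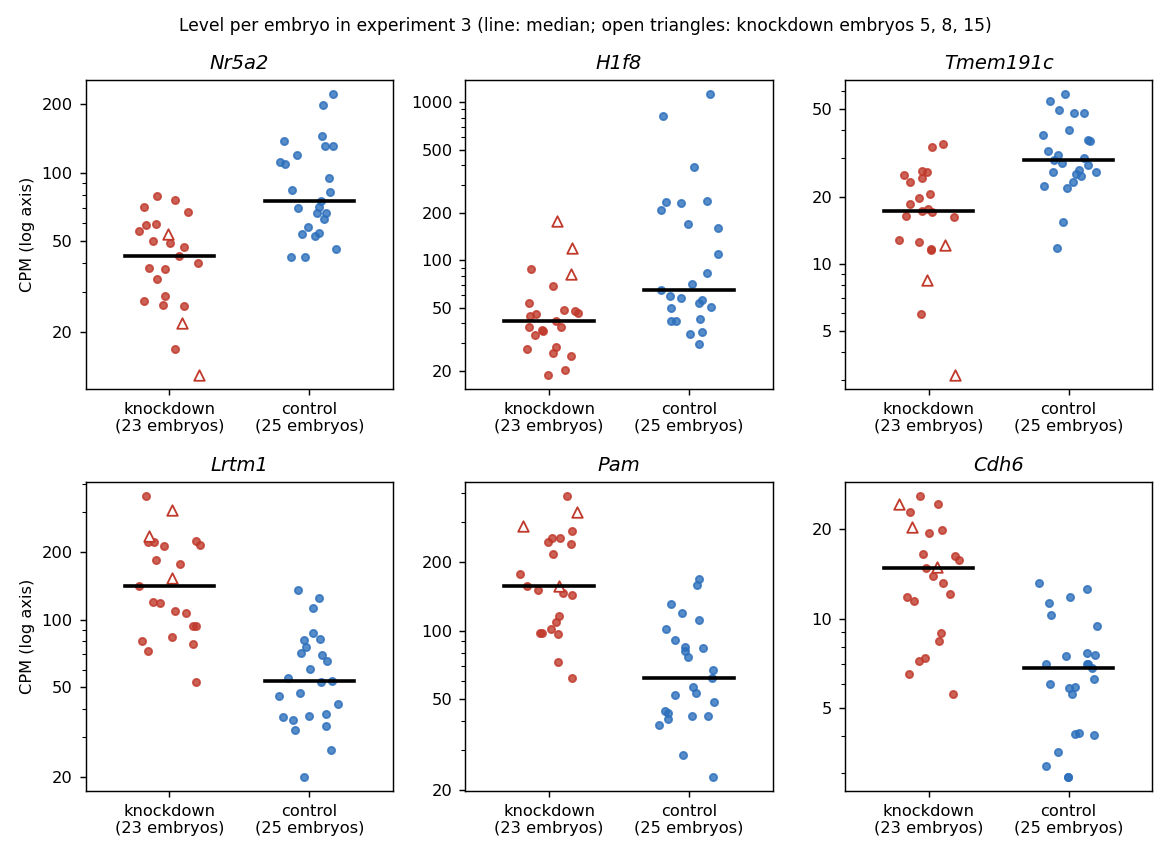
CPM on a log axis for 6 called genes in every embryo of experiment 3, with the 23 knockdown embryos left of the 25 control embryos. Black lines are medians (43.1 and 75.5 CPM for Nr5a2, 142 and 53.2 CPM for Lrtm1) and open triangles are knockdown embryos 5, 8 and 15. The arms overlap in each panel.

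Lrtm1, Pam and Cdh6 lie on different chromosomes (14, 1 and 15) yet moved together from embryo to embryo inside each arm. Over the 23 knockdown embryos, Lrtm1 and Pam had Pearson's r = 0.984 and Spearman's rho = 0.987 on the log2 CPM scale, and over the 25 control embryos r = 0.977 and rho = 0.953 (permutation test, adjusted over 12 relations among the 4 genes, p = 3.0e-05 for each). Without the 2 embryos farthest from the median of Lrtm1, r was 0.977 in knockdown and 0.967 in control embryos. Lrtm1 and Cdh6 had r = 0.903 (rho = 0.895, adjusted p = 3.0e-05 for both) in knockdown and r = 0.698 (rho = 0.645, adjusted p = 2.0e-04 and 8.7e-04) in control embryos, by the same permutation test. Leaving out 2 embryos by the same rule gave 0.869 in knockdown and 0.646 in control embryos. Cdh6 and Tmem170b did not pass in control embryos (r = 0.244, rho = 0.236, permutation p = 0.24 and 0.256 after adjustment). The smallest raw p that these permutations can give is 1.0e-05. The genes were chosen after their values were seen. Main transcripts shared 0.192% (Lrtm1), 0.417% (Pam) and 0.345% (Cdh6) of their 31-base words with transcripts of other genes in GENCODE M21. Lrtm1 overlaps Cacna2d3 on the opposite strand, and Pam overlaps 5 genes on either strand. Only words that are not shared tell reads of these overlapping genes apart here.

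**Figure D2:**
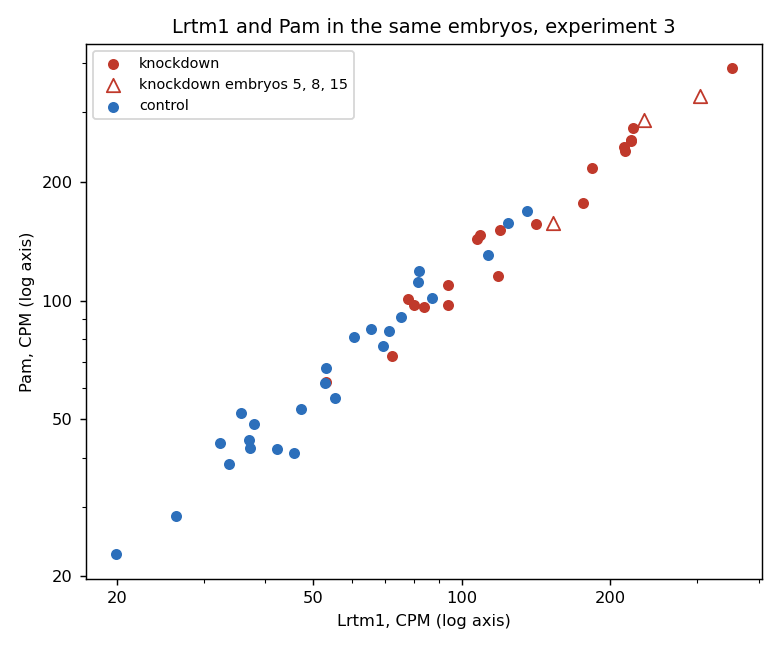
Pam against Lrtm1, both in CPM on log axes, with 1 point for each of the 23 knockdown and 25 control embryos of experiment 3. Points of both arms lie along 1 line (r = 0.984 in knockdown and 0.977 in control embryos), with knockdown embryos further up it.

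The counts of these genes came from particular start sites. Transcript ENSMUST00000055662.3 took 99.99% of Lrtm1 counts and ENSMUST00000036439.5 took 98.0% of Cdh6 counts, and both transcripts start inside the RefSeq promoter windows of their genes (GRCm38.p6, 250 bases before to 50 after the start). For Pam, ENSMUST00000161567.7 took 99.3%. Its annotated start lies 118328 bases away from the nearer of the RefSeq windows of Pam, inside the gene, where no window was at hand. The start sites used in these embryos were not measured. The windows of Lrtm1 and Cdh6 are shown because they hold the annotated starts of these transcripts. They are all in lower case since neither holds the half-site CAAGGNCA on either strand.
Lrtm1 promoter, chr14:29017958-29018257, plus strand: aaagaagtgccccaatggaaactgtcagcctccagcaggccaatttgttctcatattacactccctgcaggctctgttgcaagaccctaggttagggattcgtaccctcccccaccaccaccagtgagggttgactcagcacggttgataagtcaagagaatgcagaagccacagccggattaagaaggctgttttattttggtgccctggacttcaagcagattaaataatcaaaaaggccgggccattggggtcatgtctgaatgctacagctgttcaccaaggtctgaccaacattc
Cdh6 promoter, chr15:13173626-13173925, minus strand: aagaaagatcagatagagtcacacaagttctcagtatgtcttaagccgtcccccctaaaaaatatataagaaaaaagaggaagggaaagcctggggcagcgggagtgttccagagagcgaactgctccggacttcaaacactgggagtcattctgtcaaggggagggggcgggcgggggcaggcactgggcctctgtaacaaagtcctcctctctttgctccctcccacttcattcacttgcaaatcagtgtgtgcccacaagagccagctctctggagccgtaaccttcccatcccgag

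The lower genes were of several kinds. H1f8 codes for the linker histone of the oocyte, Zfp36 for tristetraprolin, which binds AU-rich elements and speeds mRNA decay, and Arrdc2 for an arrestin-like protein. H1f8 (chromosome 6) had 18.8, 41.6 and 177 CPM as its lowest, median and highest value in knockdown embryos, against 29.5, 64.7 and 1131 CPM in control embryos. Most embryos of both arms overlapped, but 7 control embryos lay above every knockdown embryo. The 3 highest knockdown embryos were 8, 15 and 4. H1f8 fell by 1.79 on the log2 scale (SE 0.37; edgeR adjusted p = 0.0205), and its log2 fold change was -2.13 without embryos 5, 8 and 15 (adjusted p = 0.00317). Leaving out control embryo 14 or control embryo 20, the 2 highest, ended the call (highest adjusted p = 0.0713), with the fold change between -1.95 and -1.42 over all single omissions. By limma-voom the log2 fold change of H1f8 was -1.20 and did not pass (adjusted p = 0.213).

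Tmem191c (chromosome 16) ran from 3.15 CPM through a median of 17.2 to 34.8 CPM in knockdown embryos, against 11.8, 29.4 and 58.5 CPM in control embryos. The arms overlapped, with 5 knockdown embryos below all controls and 9 controls above all knockdown embryos. It fell by 0.84 on the log2 scale (SE 0.18; edgeR adjusted p = 0.0343), and by 0.73 without embryos 5, 8 and 15 (adjusted p = 0.0450). Its counts were spread over 15 transcripts, and it overlaps Pi4ka on the opposite strand. Strand cannot tell their reads apart in an unstranded library. The Tmem191c transcript with most counts shares 11.7% of its 31-base words with Pi4ka. Arrdc2 averaged 13.0 ± 5.15 CPM in knockdown and 21.6 ± 8.30 CPM in control embryos (SD, n = 23 and 25), a log2 fold change of -0.73 (edgeR adjusted p = 0.0455) that did not pass without embryos 5, 8 and 15 (adjusted p = 0.0624). Zfp36 was at 4.21 ± 2.38 CPM in knockdown and 8.83 ± 6.19 CPM in control embryos, a log2 fold change of -1.06 (edgeR adjusted p = 0.0482), and B020017C02Rik, a processed pseudogene, at 27.4 ± 16.9 CPM in knockdown and 61.3 ± 30.9 CPM in control embryos, a log2 fold change of -1.16 (edgeR adjusted p = 0.0230). B020017C02Rik shares 88.6% of its 31-base words with Gm26678, so its counts are uncertain. Both still passed without embryos 5, 8 and 15 (adjusted p = 0.0450 and 0.0221), and both were chosen after their values were seen. Single omissions ended the call of Arrdc2 in 32 of 48 cases, of Zfp36 in 38 and of Tmem191c in 16.

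H2bc21, a histone H2B gene, was lower too, at 16.3 ± 11.7 CPM in knockdown and 45.9 ± 36.6 CPM in control embryos (SD, n = 23 and 25; log2 fold change -1.50, SE 0.34, edgeR adjusted p = 0.0455). Single omissions ended its call in 37 of 48 cases, and limma-voom did so too (adjusted p = 0.111). The injected markers are H2B fusions that differ between the arms, and their part in this row was not tested, so the gene is left out of the ranking.

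An extended half-site CAAGGNCA, the kind of element the NR5A receptors bind, was searched on both strands of the RefSeq windows. Of 12 called genes outside the mitochondrial genome, 9 had a window and 2 of those windows, of Tmem191c and Zfp36, held the element, against 6.10% of the 10056 tested genes with a window and 6.71% of all 32851 windows. Both windows are shown with the element in capitals, starting 186 bases before the RefSeq start in Tmem191c and 12 bases after it in Zfp36. The transcript that took most counts starts outside the window in both, 1252 bases away in Tmem191c and 775 in Zfp36. The windows of Nr5a2, H1f8, Arrdc2, Pam and Tmem170b did not hold these letters.
Tmem191c promoter, chr16:17276050-17276349, plus strand: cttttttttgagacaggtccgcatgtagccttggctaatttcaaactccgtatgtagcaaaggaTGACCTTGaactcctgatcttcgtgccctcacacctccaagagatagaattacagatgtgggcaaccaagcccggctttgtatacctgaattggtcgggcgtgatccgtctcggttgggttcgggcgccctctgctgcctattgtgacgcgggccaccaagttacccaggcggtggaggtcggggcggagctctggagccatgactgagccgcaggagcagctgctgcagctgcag
Zfp36 promoter, chr7:28379179-28379478, minus strand: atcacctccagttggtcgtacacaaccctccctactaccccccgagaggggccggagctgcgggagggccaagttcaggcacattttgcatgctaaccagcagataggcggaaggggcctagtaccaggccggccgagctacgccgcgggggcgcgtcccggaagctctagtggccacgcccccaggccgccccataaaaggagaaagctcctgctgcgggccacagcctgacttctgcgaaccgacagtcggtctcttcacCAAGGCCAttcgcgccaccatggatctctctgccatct

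The mitochondrial genome codes for 13 proteins of the respiratory chain and ATP synthase, and all 13 of its mRNAs were higher on average in knockdown embryos. Of these, 6 rose by the edgeR test, where 0.0824% of all genes did: mt-Nd1, mt-Nd2, mt-Nd3 and mt-Nd4 of complex I, mt-Co2 of complex IV and mt-Atp8 of ATP synthase. At an unadjusted p under 0.05 there were 12, and the median log2 fold change of the 13 was 0.49, against 0.04 over all genes. Their summed share of the library was 8.73% ± 1.94 in knockdown and 6.85% ± 1.17 in control embryos (SD, n = 23 and 25).

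mt-Atp8 had 976, 1620 and 2913 CPM as its lowest, median and highest value in knockdown embryos, against 683, 943 and 1749 CPM in control embryos. Every knockdown embryo was above the control median. It rose by 0.64 on the log2 scale (SE 0.11; edgeR adjusted p = 0.00306), and by 0.57 without embryos 5, 8 and 15 (adjusted p = 0.0113). mt-Nd2 ran from 2360 CPM through a median of 3744 to 9999 CPM in knockdown embryos, against 1798, 2429 and 3907 CPM in control embryos. Embryo 5 held the highest value by far, and 9 other knockdown embryos were also above all controls. It rose by 0.62 (SE 0.12; edgeR adjusted p = 0.0132), and by 0.47 without embryos 5, 8 and 15 (adjusted p = 0.0365).

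mt-Co2 averaged 4114 ± 1331 CPM in knockdown and 2684 ± 738 CPM in control embryos (SD, n = 23 and 25), and rose by 0.62 on the log2 scale (SE 0.12; edgeR adjusted p = 0.0133). mt-Nd1 rose by 0.58 (edgeR adjusted p = 0.0230), mt-Nd3 by 0.55 (0.0455) and mt-Nd4 by 0.43 (0.0455). The calls of mt-Nd3 and mt-Nd4 each ended in 31 of 48 single omissions. With library totals alone the log2 fold change of mt-Nd3 was 0.47 (edgeR adjusted p = 0.0834) and the log2 fold change of mt-Nd4 was 0.35 (edgeR adjusted p = 0.103), and neither passed. Without embryos 5, 8 and 15, mt-Atp8, mt-Nd2 and mt-Co2 still passed, all 13 log2 fold changes stayed positive, and their median was 0.40. mt-Nd6, the one gene coded on the other strand, did not pass with all embryos (log2 fold change 0.24, edgeR adjusted p = 0.806), nor did mt-Atp6 (0.24, adjusted p = 0.735). Gm10925, a nuclear pseudogene on chromosome 1 whose 31-base words all occur in mt-Atp6, was called higher (log2 fold change 0.66, edgeR adjusted p = 0.00541) and was named after its values were seen. Reads of this pair cannot be told apart, and Gm10925 took 76.2% of their sum. Summed, mt-Atp6 and Gm10925 had 8465, 13432 and 23507 CPM in knockdown embryos (lowest, median, highest), against 6509, 8863 and 14270 CPM in control embryos, a ratio of means of 1.47. For mt-Co2, 24.1% of the sum with its copy Gm28661 lay on the copy, and the ratio of the summed means was 1.47 as well. mt-Nd3 and mt-Nd4 share 98.1% and 62.8% of their 31-base words with nuclear copies, and are uncertain to that extent, though no copy other than Gm10925 and Gm28661 took over 0.617% of a sum.

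**Figure D3:**
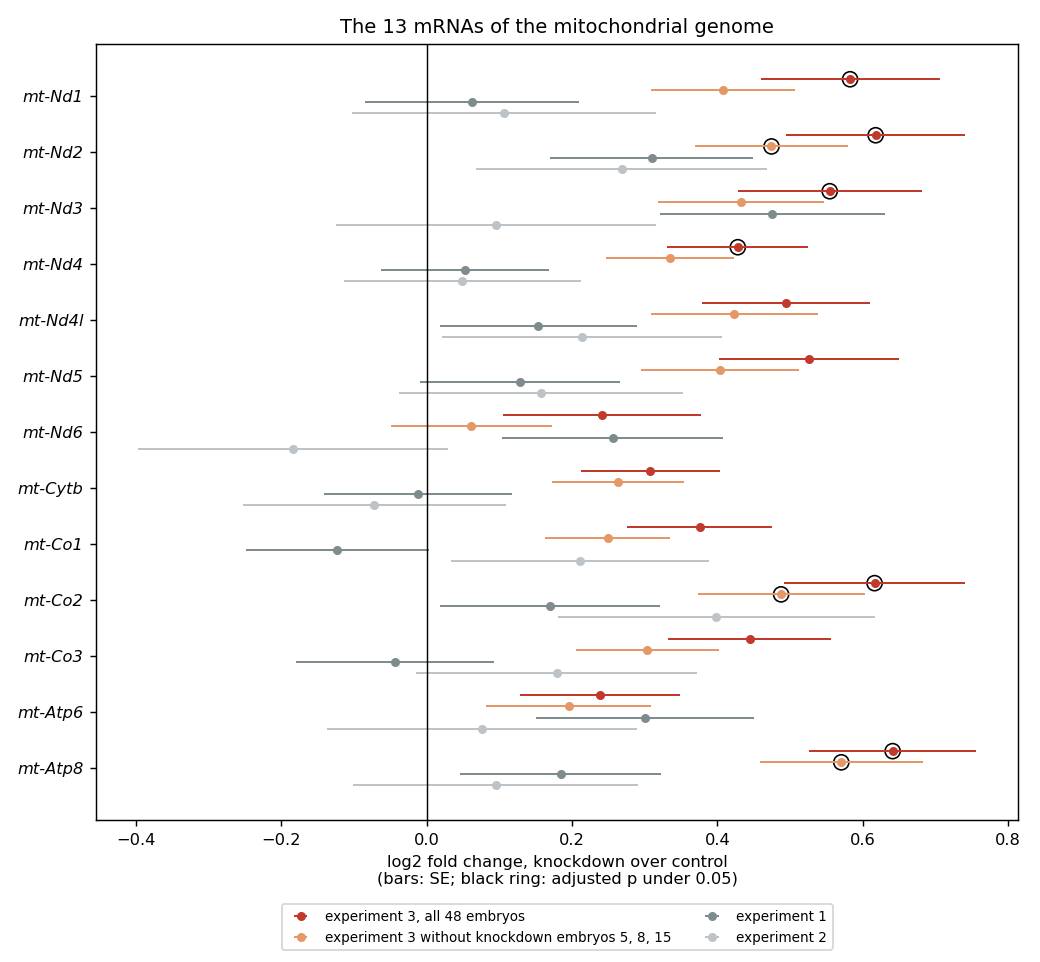
Log2 fold change of knockdown over control, with its SE as a bar, for the 13 mRNAs of the mitochondrial genome. Experiment 3 is shown with all 48 embryos (median 0.49) and without knockdown embryos 5, 8 and 15 (median 0.40), beside experiments 1 and 2 (medians 0.15 and 0.11), and black rings mark an adjusted p under 0.05.

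Nuclear genes that serve the same organelle had medians nearer to 0. Among 77 nuclear-coded subunits of oxidative phosphorylation 56 log2 fold changes were positive, among 76 mitochondrial ribosomal proteins 50, and among 41 genes for replication and expression of the mitochondrial genome 18. Over all genes 7507 of 13354 were positive. The medians of these 3 lists were 0.09, 0.06 and -0.06, and 0 passed the edgeR test, where 0.135% of all genes did. At an unadjusted p under 0.05 there were 5, 5 and 1, where 6.51% of all genes were. Lrpprc, which stabilizes mitochondrial mRNA, was at 25.6 CPM on average in knockdown and 18.2 CPM in control embryos and did not pass (log2 fold change 0.49, edgeR adjusted p = 0.439).

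Genes of the 2-cell burst and of the oocyte are often used to follow the maternal-to-zygotic transition. Of the 43 genes of the 2-cell list, 32 were tested and none passed the edgeR test. At an unadjusted p under 0.05 there was none either, and 20 of the 32 log2 fold changes were negative (median -0.05), against 5847 of 13354 over all genes. Zscan4a, a member of the Zscan4 family that marks this stage, lay between 21.0 and 535 CPM in knockdown embryos, with a median of 76.6 CPM, against 27.1 to 224 CPM and a median of 66.5 CPM in control embryos (log2 fold change 0.54, edgeR adjusted p = 0.778). The highest value was that of embryo 15, without which the log2 fold change was 0.28 (edgeR adjusted p = 0.990). GENCODE M21 lists Zscan4a as an unprocessed pseudogene. Zfp352, another such marker, averaged 373 CPM in knockdown and 386 CPM in control embryos (log2 fold change -0.05, edgeR adjusted p = 0.992).

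The maternal list held 55 genes that the oocyte deposits, of which 54 were tested. With all embryos only H1f8 passed the edgeR test among them, 26 log2 fold changes were negative and the median was 0.00. Without embryos 5, 8 and 15, 50 of the 54 were negative and the median was -0.30, against 0.01 over all 13644 genes. In that fit 22 were lower at an unadjusted p under 0.05, against 660 of all genes, and H1f8 and Zfp57 passed after adjustment. The level of the list in an embryo, its mean log2 CPM over the 54 genes, was 7.73 in embryo 5, 8.39 in embryo 8 and 7.17 in embryo 15. It lay between 6.04 and 7.32 in the other 20 knockdown embryos, with a median of 6.63. In control embryos it lay between 6.30 and 8.01, with a median of 6.97. Embryos 5 and 8 thus had the highest levels of the knockdown arm. No control embryo was left out, though control 6 was at 8.01 and control 2 at 7.73. The negative direction in the fit without the 3 embryos cannot be told apart from this choice, made in 1 arm only. The level of the 2-cell list was 3.46 in embryo 5 and 4.65 in embryo 8, below all other embryos, and 7.39 in embryo 15. With the 3 embryos in place, the maternal median also turned negative in several settings. It was -0.14 under library totals alone, -0.03 with no filter and -0.01 with a CPM filter. DESeq2 gave -0.07, and limma-voom and the replicate block gave -0.17 each. Over all genes the median in these settings was -0.03, 0.04, 0.04, 0.05, -0.05 and -0.03, in the same order.

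Zfp57, which keeps methylation at imprinted regions, was at 677 CPM in embryo 8, 473 CPM in embryo 15 and 219 CPM in embryo 5, against a control median of 219 CPM. Its log2 fold change was -0.24 with all embryos (edgeR adjusted p = 0.909) and -0.57 without the 3 (edgeR adjusted p = 0.0450). Other maternal genes had negative log2 fold changes in that fit without passing: Bcl2l10, a Bcl2 family gene (-0.99, edgeR adjusted p = 0.0930), Zar1, which stores maternal mRNA (-1.09, adjusted p = 0.0965), and Btg4, an adaptor of maternal mRNA deadenylation (-0.86, adjusted p = 0.163). With all embryos these were -0.27, -0.85 and 0.09. Bcl2l10, Zar1 and Btg4 fall outside the rule for named genes and were picked after their values were seen. Gdf9, an oocyte growth factor, averaged 285 CPM in knockdown and 276 CPM in control embryos (log2 fold change 0.05 with all embryos, -0.24 without the 3, passing in neither edgeR fit). Outside the lists, Mkln1, which codes for muskelin, had the smallest p of the genes gained without the 3 embryos (log2 fold change -1.16, edgeR adjusted p = 0.000797), while with all embryos it was -0.62 (adjusted p = 0.629). It was at 234 CPM in embryo 8, 106 CPM in embryo 5 and 71.5 CPM in embryo 15, against a control median of 58.7 CPM. Control embryo 6, at 241 CPM, was kept in both fits. Mkln1 was picked after its values were seen.

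**Figure D4:**
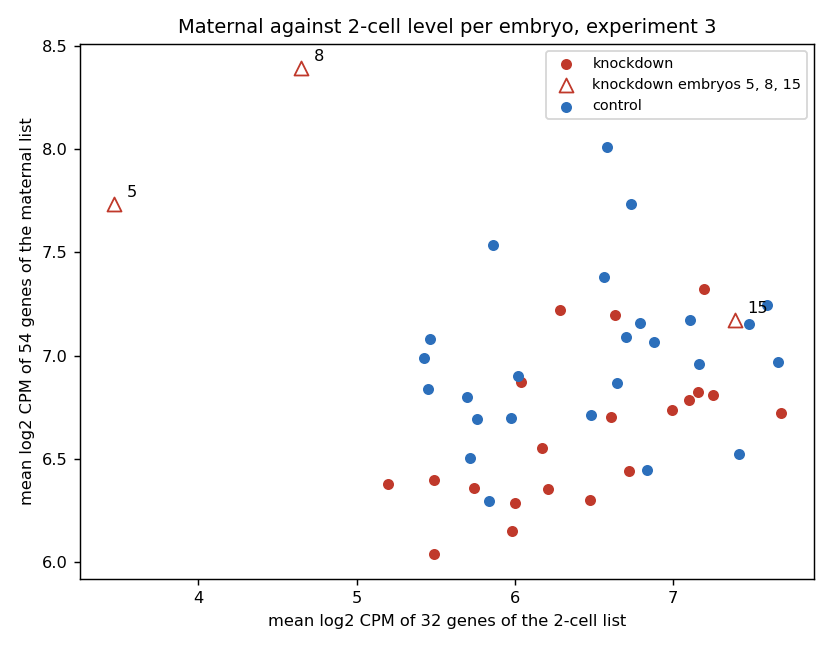
Mean log2 CPM of 54 maternal genes against that of 32 genes of the 2-cell list, with 1 point for each of the 23 knockdown and 25 control embryos of experiment 3. Knockdown embryos 5 and 8 lie at the upper left (2-cell levels 3.46 and 4.65), apart from all others. The vertical median is 6.63 for the other 20 knockdown embryos and 6.97 for control embryos.

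With all 48 embryos the remaining lists showed no called member other than Nr5a2 itself, in the list of genes it is known to control in other tissues. That list had 35 genes, 16 of them tested, since steroid and bile acid genes such as Cyp7a1 and Nr0b2 were under the filter on low counts. Of 52 nuclear receptors and their cofactors 31 were tested, with a median of 0.06 and Esrrg, an estrogen-related receptor, nearest to passing (log2 fold change 0.56, edgeR adjusted p = 0.654). Pluripotency genes had a median of 0.02 over 34 tested, trophectoderm genes 0.09 over 41 and genome activation factors -0.05 over 52. The medians of nuclear receptors, pluripotency and trophectoderm genes turned negative with library totals alone (-0.05, -0.04 and -0.01), limma-voom (-0.11, -0.04 and -0.05) and the replicate block (-0.07, -0.02 and -0.01). The median over all genes turned negative in the same settings, to -0.03, -0.05 and -0.03. The medians of nuclear receptors (-0.08) and trophectoderm genes (-0.0056) turned negative without embryos 5, 8 and 15 as well, where the median over all genes was 0.01.

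Growth and cell cycle genes had no call. Of 95 ribosome biogenesis genes 65 log2 fold changes were negative (median -0.06), of 49 translation factors 37 (median -0.07) and of 43 genes of G2 and mitosis 32 (median -0.11). Over all genes 5847 of 13354 were negative. Without embryos 5, 8 and 15 the ribosome biogenesis median was 0.08, with 30 of 95 negative, and that of translation factors 0.01. The median of G2 and mitosis genes stayed negative there, at -0.05, with 29 of 43 negative, against 6692 of 13644 over all genes. The level of the ribosome biogenesis list was 4.29, 4.00 and 4.73 in embryos 5, 8 and 15, against 5.34 to 7.49 in the other knockdown embryos and 5.26 to 7.31 in control embryos. Chromatin enzymes had 7 lower and 3 higher of 66 at an unadjusted p under 0.05, led by the acetyltransferase gene Kat2a (median 32.2 CPM in knockdown and 49.3 CPM in control embryos; log2 fold change -0.71, edgeR adjusted p = 0.268), and energy metabolism genes had 5 lower and 2 higher of 59. Across all genes, 2.49% were lower and 4.02% higher at that threshold.

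**Figure D5:**
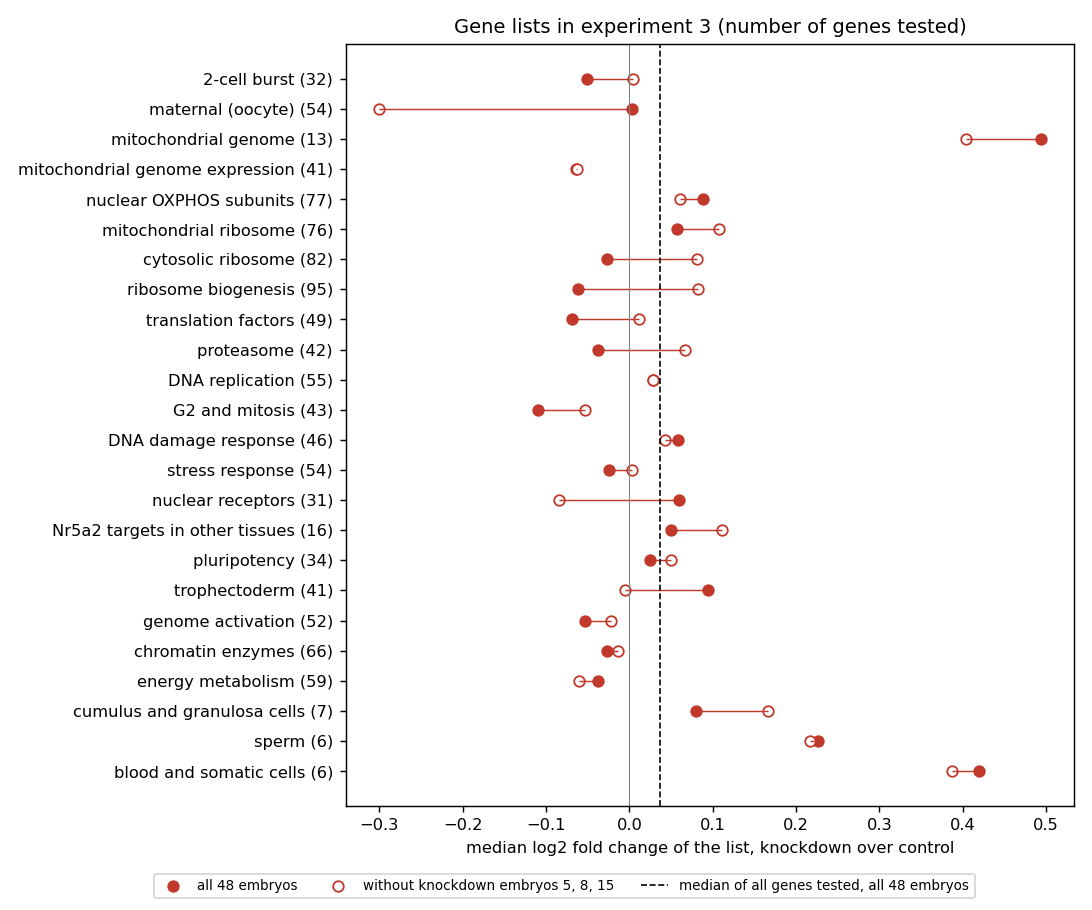
Median log2 fold change of knockdown over control for the 24 gene lists, with the number of genes tested beside each name. Filled points are all 48 embryos, open points leave out knockdown embryos 5, 8 and 15, and the dashed line is the median of all genes (0.04). The maternal list moves most between them (0.00 and -0.30), and the mitochondrial genome stays farthest to the right (0.49 and 0.40).

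Several genes came close to the threshold, and their values are given without a call. Zfp599, a zinc finger gene, was at 67.6 ± 45.5 CPM in knockdown and 161 ± 77.4 CPM in control embryos (SD, n = 23 and 25; log2 fold change -1.25, edgeR adjusted p = 0.0549). It passed without embryos 5, 8 and 15 (-1.06, edgeR adjusted p = 0.0485), as did Ppp1r10, a regulator of protein phosphatase 1 (-0.54 with all embryos, adjusted p = 0.0981; -0.60 without the 3, adjusted p = 0.0365). Ccnl2, a cyclin of splicing kinases, had a log2 fold change of -0.53 (edgeR adjusted p = 0.0866). Tmem131l, Sp6, Timeless and Arnt lay between -0.77 and -0.38, with edgeR adjusted p between 0.114 and 0.171. Among genes with higher values, mt-Nd4l (0.49) and the zinc finger gene Zfp101 (0.78) both had an edgeR adjusted p of 0.0539. Zfp101 lay between 50.6 and 353 CPM in knockdown embryos, with a median of 150 CPM, against 34.5 to 174 CPM and a median of 91.3 CPM in control embryos.

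Most markers of other cells that an embryo sample could carry were low, but a few were not. Of 26 cumulus and granulosa cell markers 16 averaged under 1 CPM, with Amh, Fshr, Foxl2 and Inha at a median of 0 in both arms. Summed, that list lay between 105 and 242 CPM in knockdown and between 87.8 and 251 CPM in control embryos, most of it on Amhr2 and Serpine2. The 16 sperm markers summed to 130 to 582 CPM in knockdown and 148 to 363 CPM in control embryos, mostly on Odf2, while Tnp1 and Tnp2 had a median of 0 in both arms. The 17 blood and somatic markers summed to 637 to 962 CPM in knockdown embryos, with a median of 738 CPM, against 404 to 1059 CPM and a median of 584 CPM in control embryos. Hbb-bs, Hbb-bt, Krt5 and Krt14 were at 0 in all 48 embryos, but the globin genes Hba-a1 and Hba-a2 were above 0 in all 48. Their medians were 13.7 and 32.5 CPM in knockdown and 11.2 and 22.5 CPM in control embryos. Pecam1 and Epcam carried most of the sum, with medians of 449 and 247 CPM in knockdown embryos, against 347 and 158 CPM in control embryos. All 6 tested members of this list had a positive log2 fold change, with a median of 0.42. None passed the edgeR test, but 3 were higher at an unadjusted p under 0.05, where 4.02% of all genes were. All 6 were still positive without embryos 5, 8 and 15 (median 0.39), while the medians were -0.06 in experiment 1 and -0.12 in experiment 2. Epcam, an epithelial adhesion gene, averaged 232 CPM in knockdown and 169 CPM in control embryos and did not pass (log2 fold change 0.45, edgeR adjusted p = 0.515). The part of these markers in the results was not tested.

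Experiments 1 and 2, with their own control embryos, show how far the calls recur. In a fit over the embryos of all 3 experiments, 17 called genes besides H2bc21 had the same sign in experiment 1 in 14 cases and in experiment 2 in 16, and 5 of them also passed in experiment 1, where 0.933% of all genes did (0.127% lower and 0.806% higher): Nr5a2, Lrtm1, Pam, Cdh6 and Tmem170b. None passed in experiment 2, where no gene was called by edgeR, with 514 at an unadjusted p under 0.05. Experiment 2 had 16 knockdown and 7 control embryos. Nr5a2 itself did not pass there, with a log2 fold change of -1.13 (edgeR adjusted p = 0.755), against -1.31 in experiment 1 (edgeR adjusted p = 9.32e-06). Log2 fold changes of Lrtm1 were 1.38 in experiment 3, 1.6 in experiment 1 and 0.97 in experiment 2, and those of Pam were 1.29, 1.38 and 1.23. Those of Cdh6 were 1.1 in both experiments 3 and 1 and 0.12 in experiment 2, and those of Tmem170b were 1.00, 1.02 and 0.20. H1f8 had positive log2 fold changes outside experiment 3, 0.97 in experiment 1 and 0.77 in experiment 2, and passed in neither.

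The difference itself was tested as the experiment 3 effect minus the mean of the effects in experiments 1 and 2. For 1 of 13396 genes (0.00746%) it passed the edgeR test. That gene was H2bc21, with a difference of -3.88 on the log2 scale (adjusted p = 5.1e-06). Its log2 fold change was -1.50 in experiment 3, 5.98 in experiment 1 and -1.21 in experiment 2. H2bc21 lay between 10.3 and 180 CPM in knockdown and between 0 and 13.2 CPM in control embryos of experiment 1, against 0 to 50.2 CPM in knockdown and 1.63 to 143 CPM in control embryos of experiment 3 (CPM on unscaled totals). The first reporter row did not pass 2.20 CPM in control embryos of experiment 1, against 2.93 to 519 CPM in those of experiment 3. The second did not pass 0.364 CPM in control embryos of experiment 1, against 29.3 to 324 CPM in its knockdown embryos. The part of the marker in this difference was not tested. At an unadjusted p under 0.05 the test gave 665 genes. For H1f8 the difference was -2.65 (edgeR adjusted p = 0.0580), and it passed without embryos 5, 8 and 15 (adjusted p = 0.00763). No gene of the mitochondrial genome passed, and their medians were 0.49 in experiment 3, 0.15 in experiment 1 and 0.11 in experiment 2.

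Inside an arm, only 1 relation between the Nr5a2 level and a named gene passed a test. Over 41 genes and both arms, 82 relations on the log2 CPM scale were computed with permutation tests and Benjamini-Hochberg adjustment. Tmem191c in knockdown embryos passed by Pearson's r alone (r = 0.699, adjusted p = 0.0205; Spearman's rho = 0.476, adjusted p = 0.219). With the 2 embryos farthest from the Nr5a2 median removed, its r was 0.415. In control embryos Tmem191c had r = 0.565 (adjusted p = 0.106) and rho = 0.552 (adjusted p = 0.183), by the same permutation test. Without embryos 5, 8 and 15 no relation passed.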

How the data were processed

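The authors' deposited table gives estimated counts for each transcript, without scaling, per the file headers. The submitters' processing notes list kallisto 0.46.1, Trim Galore 0.6.2 and DESeq2 1.32.0; they do not give the annotation release. Tables of comparisons deposited by the authors hold log2 fold changes by transcript and served only for gene names. Of 119358 rows, 117194 were summed to 35973 symbols; 2162 without a gene name (0.811% to 1.19% of counts in experiment 3) and 2 reporter rows stayed out of library sizes and tests. Sums were rounded and tested in R 4.3.3 with edgeR 4.0.16 on limma 3.58.1: filterByExpr, TMM and the quasi-likelihood F-test over the 48 embryos (46 residual degrees of freedom, biological coefficient of variation 0.623). CPM use TMM-scaled totals, except reporter rows and the row under the Nr5a2 identifier, which use the total over genes. Log2 CPM use a prior count of 2. SEs came from the fold change and F. The fit was checked on simulated counts. Positions are GENCODE M21 (GRCm38), promoter sequences RefSeq.

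Embryos were grouped by the titles and treatment labels, each taken as independent. The members, 24 gene lists and tests were chosen with earlier results of these data known. Named genes were Nr5a2, up to 10 called genes per direction by fold change (average log2 CPM of at least 4, no clone names, no H2bc21), filled up to 10 by the smallest p, and from every list its called members, at most 2 a direction, or its lowest p where none was called. Alternatives were other scalings, filters, DESeq2 1.42.0, limma-voom, a fit over all 3 experiments, a replicate block and, added after the data were seen, leaving out embryos. The values of 1 gene are not reported here. Libraries carry no molecular identifiers, so counts are not independent molecules.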

Additional observations from a re-analysis of the deposited data

Results flagged for a closer look

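The knockdown effect of H2bc21 differed between experiments: the effect in experiment 3 minus the mean effect in experiments 1 and 2 was -3.88 on the log2 scale (edgeR quasi-likelihood test, adjusted p = 5.1e-06), with log2 fold changes of -1.50 in experiment 3, 5.98 in experiment 1 and -1.21 in experiment 2. Against experiment 2 alone the difference was -0.28 (edgeR adjusted p = 0.982). In experiment 1 the first reporter row lay between 2.29 and 42.7 CPM in knockdown embryos and did not pass 2.20 CPM in control embryos, while in experiment 3 it lay between 0 and 10.9 CPM in knockdown and between 2.93 and 519 CPM in control embryos. The second reporter row lay between 29.3 and 324 CPM in knockdown embryos of experiment 1 and did not pass 0.364 CPM in its control embryos. In experiment 3 the second row lay between 0.496 and 90.2 CPM in knockdown embryos and did not pass 0.488 CPM in control embryos. The part of the marker in this difference was not tested.

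The second reporter row, which enters no gene comparison, had a median of 25.7 CPM in knockdown embryos and at most 0.488 CPM in control embryos; knockdown embryo 15 was at 0.496 CPM.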

How the results depend on the processing

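The 7 lower and 11 higher genes became 12 lower with library totals alone, 240 and 298 with no filter on low counts, 4 lower with at least 1 CPM in at least 23 embryos, 19 and 25 with DESeq2, 18 lower without knockdown embryos 5, 8 and 15, and 4 lower without embryo 15. The cause was not tested. All 18 genes stayed called with median-of-ratios size factors, scaling without the mitochondrial genome, unnamed transcripts left in the totals and DESeq2. Calls ended for 6 genes with limma-voom (H1f8, H2bc21, Arrdc2, Zfp36, Tmem170b and mt-Nd3), 6 with the 1 CPM filter (the same without H1f8 but with mt-Nd4), 4 in the fit over all 3 experiments (Arrdc2, H2bc21, Tmem170b and mt-Nd3), 3 with library totals alone (Tmem170b, mt-Nd3 and mt-Nd4), 1 with no filter (mt-Nd4), 5 without embryos 5, 8 and 15 and 6 without embryo 15. Leaving out 1 embryo each gave 2 (without control 14) to 10 lower genes (without knockdown 1) and 8 to 18 higher genes, and no change of call for Nr5a2 (log2 fold change -1.12 to -0.99). None of the 48 genes that were called or named by the rule changed sign under these alternatives. Outside them, the maternal genes Gdf9 (0.05 with all embryos), Btg4 (0.09) and Bmp15 (0.66) turned to -0.24, -0.86 and -0.22 without embryos 5, 8 and 15.

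The difference between experiments was called for 2 genes with library totals alone, 131 with no filter, 2 with DESeq2, 3 against experiment 1 alone, 0 against experiment 2 alone and 2 without embryos 5, 8 and 15, in place of 1. Of the relations with Nr5a2, 0 in place of 1 passed without those embryos.

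Arms share 23 embryo numbers, and the labels do not say that equal numbers pair embryos. Same-numbered embryos had correlations of deviations from -0.334 to 0.375 (median 0.06, 8 of 23 over 0.1). No knockdown embryo correlated best with its own number. These values cannot exclude that some same-numbered embryos were handled together, and the main fit took all embryos as independent. The replicate block gave 0 lower and 2 higher genes, and Nr5a2 at -1.02 (edgeR adjusted p = 0.209). No embryo of experiment 3 was under 3 M counts, so that alternative gave no value.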
